A study of Mus musculus with 4 samples.

Results

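Small leucine-rich proteoglycans are a family of secreted matrix proteins, and 10 of their genes were followed here by symbol (Lum, Dcn, Bgn, Omd, Ogn, Aspn, Fmod, Prelp, Kera and Podn), out of 18193 genes named on the array. They are covered by 21 of the 34945 probe sets that name a single gene. The family was chosen by symbol with the same TNF and genotype differences of these arrays in view, so the members' values are given as a description and without tests.

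The cells, embryonic fibroblasts (MEFs) of C57BL/6 mice, lacked FAN (FAN -/-) or were wild type (FAN +/+). FAN is the product of Nsmaf, an adaptor protein that binds a receptor of tumour necrosis factor (TNF) and is linked to neutral sphingomyelinase. The 4 conditions, each measured on 1 Affymetrix whole-genome array, were FAN -/- cells with TNF, untreated FAN -/- cells, FAN +/+ cells with TNF and untreated FAN +/+ cells. TNF was given at 50 ng/ml for 16 h after 8 h without serum, and untreated cells spent 24 h without serum, so every culture was serum-starved. The sources used here do not say how many embryos or cultures lie behind an array. Conditions follow the sample titles; the genotype entry disagrees with the title for 2 of the 4 samples, the FAN +/+ array with TNF and the untreated FAN -/- array. Nsmaf had log2 levels of 7.48 with TNF and 7.91 untreated on the FAN -/- arrays, against 8.55 and 8.95 on the FAN +/+ arrays, which goes with the titles; the sources used here do not name the deleted part, and a probe set outside it would check nothing.

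Proteins of this family share a core of leucine-rich repeats that lies along collagen fibrils, and most carry sugar chains of the chondroitin, dermatan or keratan sulfate kind. In connective tissue they set how thick collagen fibrils become and hold growth factors such as TGF-beta in the matrix. Fibroblasts are a main source of decorin, biglycan and lumican, whereas keratocan belongs to the cornea and osteomodulin to bone.

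All values below are deposited log2 levels of a gene's brightest probe set or differences between such levels. The background floor is the median of all values, at log2 6.27. The arrays had median log2 levels of 6.21 to 6.3 and highest values of 14.34 to 14.4. With 1 array per condition no difference has a replicate check, the number of arrays limits the precision, and "higher" and "lower" describe these arrays. Of the 10 members, 9 lay above the floor on all 4 arrays. Kera (keratocan) lay below it on all 4, between log2 4.17 and 4.28, and no difference is given for it.

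The measured members fell into 3 patterns. Aspn, Omd and Ogn were lower with TNF in both genotypes. Lum, Dcn, Fmod and Prelp were lower in FAN -/- cells in both treatments, and more so with TNF. Bgn and Podn stayed under 2-fold between all of the arrays, with spans of 0.14 log2 for Bgn and 0.51 log2 for Podn.

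**Figure D1:**
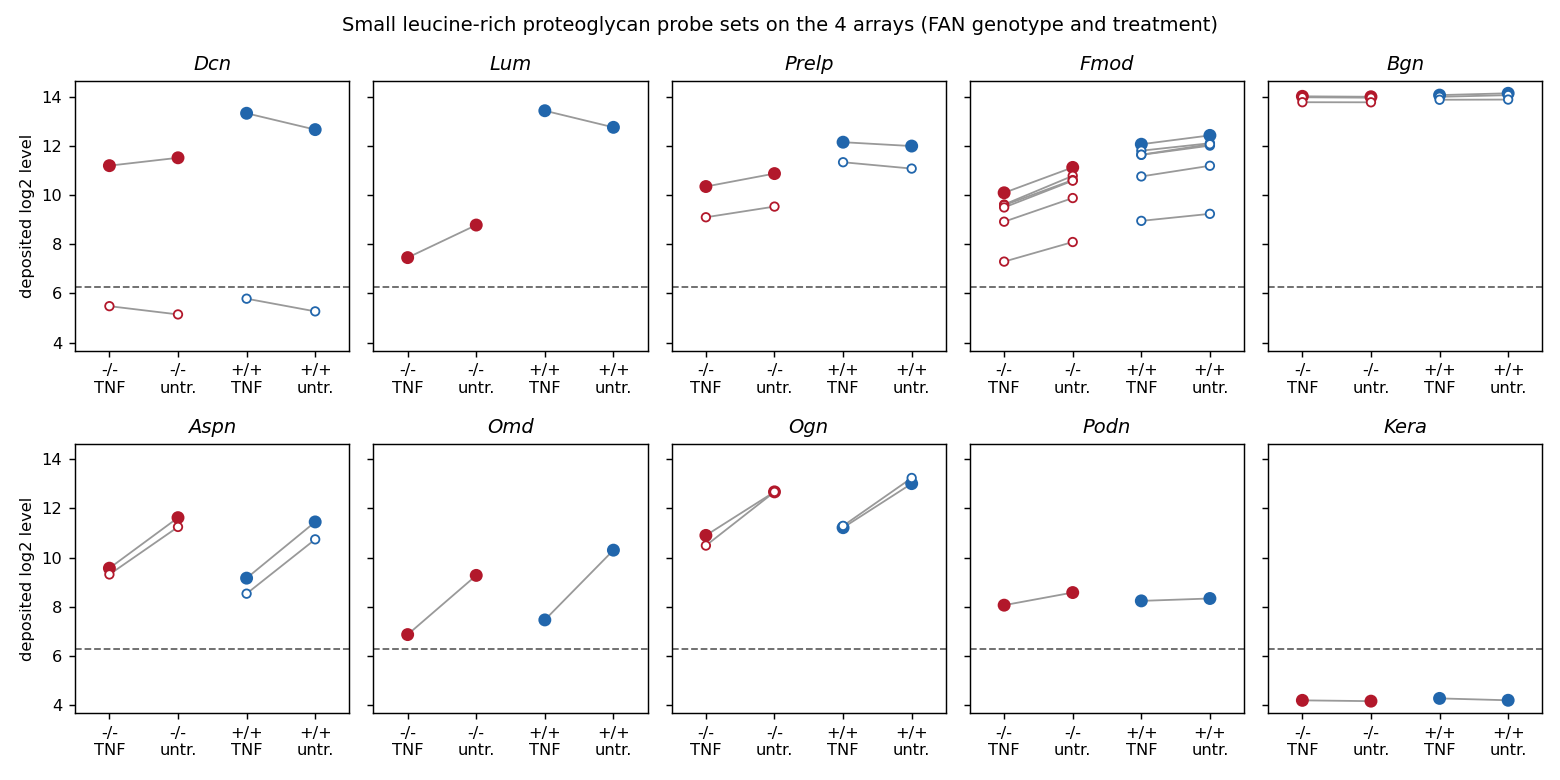
Deposited log2 level (vertical axis) of each probe set of the 10 genes on the 4 arrays, with FAN -/- in red and FAN +/+ in blue; filled points are the probe set used for the gene, open points its other probe sets, grey lines join the arrays of one genotype and the dashed line is the floor at 6.27. Aspn, Omd and Ogn are lower with TNF in both colours, Lum sits at 7.45 and 8.78 in red against 13.42 and 12.75 in blue, and Bgn stays near 14.

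Asporin (Aspn), a collagen-binding member that also binds TGF-beta and lacks the usual sugar chain, had a log2 level of 9.57 with TNF against 11.62 untreated in FAN -/- cells. In FAN +/+ cells it had 9.17 with TNF against 11.45 untreated. Both TNF-treated arrays thus lay below both untreated arrays, with differences of -2.05 log2 (4.15-fold lower) in FAN -/- and -2.28 log2 (4.87-fold lower) in FAN +/+ cells. Its second probe set gave -1.93 and -2.21 log2.

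Osteomodulin (Omd), a keratan sulfate member best known from mineralised bone matrix, had log2 levels of 6.87 with TNF and 9.28 untreated in FAN -/- cells. In FAN +/+ cells the levels were 7.47 with TNF and 10.30 untreated. It was 5.30-fold lower with TNF in FAN -/- cells and 7.14-fold lower in FAN +/+ cells. These were the 4th lowest TNF responses of the 12224 genes above the floor on at least 1 array, in each genotype. Omd was also lower in FAN -/- than in FAN +/+ cells, by 2.04-fold untreated and 1.51-fold with TNF, and no second probe set names it alone.

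Osteoglycin (Ogn), also called mimecan, had log2 levels of 10.90 with TNF and 12.67 untreated in FAN -/- cells, and of 11.22 and 13.01 in FAN +/+ cells. The difference with TNF was -1.77 log2 (3.41-fold lower) in FAN -/- and -1.79 log2 (3.46-fold lower) in FAN +/+ cells. Its other probe set gave -2.18 and -1.95 log2, so the order of the genotypes turned with the probe set while the direction with TNF did not. In bulk RNA, fewer cells making a transcript and less of it per cell cannot be told apart.

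These 3 genes lie next to one another on chromosome 13 in the reference gene table, in the order Aspn, Omd, Ogn. Because all 3 were lower with TNF on these arrays, the 250 bases before their annotated starts are shown, with those of Bgn, a member that stayed level. The sequences are from RefSeq, build GRCm38.p6, all on the plus strand, and run 5′ to 3′ at chr13:49544193-49544442 for Aspn, chr13:49582212-49582461 for Omd, chr13:49607765-49608014 for Ogn and chrX:73483351-73483600 for Bgn. Capitals mark matches on either strand to the motifs searched, which are given after the sequences, and the longest run shared by Omd and Ogn.
Aspn: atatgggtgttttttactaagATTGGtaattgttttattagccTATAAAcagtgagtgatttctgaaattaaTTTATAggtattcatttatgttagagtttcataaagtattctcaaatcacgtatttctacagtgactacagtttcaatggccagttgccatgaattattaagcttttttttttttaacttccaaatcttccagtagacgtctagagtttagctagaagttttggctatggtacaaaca
Omd: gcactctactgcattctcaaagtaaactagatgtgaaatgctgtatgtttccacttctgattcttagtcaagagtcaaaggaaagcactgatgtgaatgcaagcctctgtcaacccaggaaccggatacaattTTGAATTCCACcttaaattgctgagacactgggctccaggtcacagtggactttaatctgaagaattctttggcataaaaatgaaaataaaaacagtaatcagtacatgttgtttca
Ogn: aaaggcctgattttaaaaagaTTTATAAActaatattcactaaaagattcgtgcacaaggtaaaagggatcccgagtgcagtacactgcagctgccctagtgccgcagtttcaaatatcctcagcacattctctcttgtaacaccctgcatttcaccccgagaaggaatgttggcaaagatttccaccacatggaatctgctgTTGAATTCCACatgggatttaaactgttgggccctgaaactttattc
Bgn: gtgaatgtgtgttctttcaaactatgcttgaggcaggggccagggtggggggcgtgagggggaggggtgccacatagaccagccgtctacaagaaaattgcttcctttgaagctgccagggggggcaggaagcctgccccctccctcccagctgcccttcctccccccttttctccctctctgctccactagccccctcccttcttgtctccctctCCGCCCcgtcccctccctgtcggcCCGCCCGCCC

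The Aspn window had a GC content of 30%, Omd 38.4% and Ogn 42.0%, against 64.4% for Bgn and a median of 52.4% over 32851 such windows of the reference table. The Aspn value is at or above that of 1.61% of all windows, Omd 9.70%, Ogn 16.9% and Bgn 82.3%. TATAAA occurred in Aspn and Ogn and not in Omd, and in 12.4% of all windows. Its matches began 207 and 178 bases before the Aspn start and 229 and 227 bases before the Ogn start, where a single stretch matches on both strands. CCAAT occurred in Aspn, Kera and Prelp and in 33.8% of all windows, and GGGCGG occurred in Bgn and in 1 of the 2 Podn windows and in 32.7% of all. The GGGCGG matches 10 and 6 bases before the Bgn start overlap. No window of the 8 members with one held TGANTCA (6.75% of all windows) or the NF-kB motif (7.25% of all), which says only that these letters are not in these windows. Omd and Ogn share the run TTGAATTCCAC, 117 and 47 bases before their starts. On either strand it is found in 4 of the 32851 windows, these included. It was picked after the sequences were compared, and a match is a description of the letters only.

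Turning to the members that differed by genotype, lumican (Lum), a keratan sulfate member that spaces collagen fibrils in cornea and skin, differed most. Its log2 level was 7.45 with TNF in FAN -/- cells, against 13.42 with TNF in FAN +/+ cells. Untreated, it was 8.78 in FAN -/- against 12.75 in FAN +/+ cells. Both FAN -/- arrays lay far below both FAN +/+ arrays, by 62.7-fold with TNF and 15.7-fold untreated. Among the 12224 genes these were the 3rd lowest and the 8th lowest genotype differences. The TNF response had opposite signs, -1.32 log2 (2.50-fold lower) in FAN -/- and 0.67 log2 (1.60-fold higher) in FAN +/+ cells. A single probe set names Lum, so no second one bears on these values.

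Decorin (Dcn), which carries a dermatan or chondroitin sulfate chain, binds collagen and TGF-beta and can act on growth factor receptors, neighbours Lum on chromosome 10. Its log2 level with TNF was 11.19 in FAN -/- against 13.32 in FAN +/+ cells. Untreated, it was 11.51 in FAN -/- against 12.65 in FAN +/+ cells. It was 4.37-fold lower in FAN -/- cells with TNF and 2.21-fold lower untreated. The TNF response was -0.32 log2 in FAN -/- and 0.66 log2 in FAN +/+ cells, again of opposite sign. The other Dcn probe set lay below the floor on all 4 arrays.

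Fibromodulin (Fmod), a collagen-binding keratan sulfate member prominent in tendon, had a log2 level of 10.09 with TNF in FAN -/- against 12.06 in FAN +/+ cells. Untreated, it was 11.12 in FAN -/- against 12.42 in FAN +/+ cells. It was 3.93-fold lower in FAN -/- cells with TNF and 2.46-fold lower untreated. With TNF it was 2.04-fold lower in FAN -/- cells and 1.28-fold lower in FAN +/+ cells. All 6 Fmod probe sets kept these signs, with genotype differences of -2.19 to -1.66 log2 with TNF and -1.48 to -1.15 log2 untreated. The smaller response in FAN +/+ cells ranged over them from -0.43 to -0.29 log2, against -1.17 to -0.80 log2 in FAN -/- cells. Of these 6, 5 carry the array maker's suffix _x_at for probes that may match other transcripts, as does 1 of the 3 Bgn probe sets. Another suffix of that kind, _s_at, is on the probe set used for Prelp and on the second Aspn probe set.

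Prelp, a heparin-binding member thought to anchor basement membranes to connective tissue, lies on chromosome 1 next to Fmod. Its log2 level with TNF was 10.34 in FAN -/- against 12.14 in FAN +/+ cells. Untreated, it was 10.87 in FAN -/- against 11.99 in FAN +/+ cells. It was 3.49-fold lower in FAN -/- cells with TNF and 2.17-fold lower untreated, and its other probe set gave 4.72-fold and 2.92-fold. The TNF response was -0.53 log2 in FAN -/- cells, 459th from the lowest of the 12224 genes, and 0.16 log2 in FAN +/+ cells.

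Biglycan (Bgn), a relative of decorin that can signal through toll-like receptors when released from the matrix, had log2 levels of 14.01 with TNF and 13.99 untreated in FAN -/- cells, and of 14.06 and 14.13 in FAN +/+ cells. Its differences stayed between -0.14 and 0.02 log2, and those of its other 2 probe sets between -0.11 and 0.02. These levels lie close to the highest value of each array (14.34 to 14.4), and whether that limited the differences was not tested. Podocan (Podn), a member described in kidney podocytes and vessel walls, had log2 levels of 8.07 with TNF and 8.58 untreated in FAN -/- cells, and of 8.24 and 8.34 in FAN +/+ cells. The widest of its differences was the TNF response in FAN -/- cells, at -0.51 log2 (1.43-fold lower). That response ranked 487th from the lowest of the 12224 genes.

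Counted over the members, 5 of 9 were at least 2-fold lower with TNF in FAN -/- cells (Omd, Aspn, Ogn, Lum and Fmod), where 1.07% of all genes were. In FAN +/+ cells 3 of 9 were (Omd, Aspn and Ogn), where 1.92% of all genes were. No member was 2-fold higher with TNF, where 1.35% of all genes were in FAN -/- and 2.2% in FAN +/+ cells. The median member response was -1.03 log2 in FAN -/- and -0.10 log2 in FAN +/+ cells, against medians over all genes of 0.01 and -0.03 log2. These contrasts were in view when the family was chosen, and the shares support nothing further. Fmod was just past the line in FAN -/- cells, at 2.04-fold lower, and its 6 probe sets ran from 1.74-fold to 2.24-fold lower. With the floor at the 70th percentile Lum had -0.93 log2 in FAN -/- cells, short of 2-fold, which left 4 members. Some markers of smooth muscle and of fibroblasts were also lower with TNF. Cnn1, which encodes the smooth muscle protein calponin, differed by -1.05 log2 in FAN -/- and -1.01 log2 in FAN +/+ cells, and Myh11, a smooth muscle myosin gene, by -0.75 and -0.77 log2. Smtn differed by -0.44 and -0.46 log2, and the fibroblast surface marker Thy1 by -0.94 and -0.70 log2. Acta2 and Tagln, also on the smooth muscle list, stayed between -0.13 and 0.07 log2, and Des had 0.13 and -0.02 log2. Other fibroblast markers went up, with Pdgfra at 0.17 and 0.53 log2 and S100a4 at 0.21 and 0.09 log2. The median response of the fibroblast list was -0.12 log2 in FAN -/- and -0.10 log2 in FAN +/+ cells. The part of such cells in the lower Aspn, Omd and Ogn levels was not tested.

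**Figure D2:**
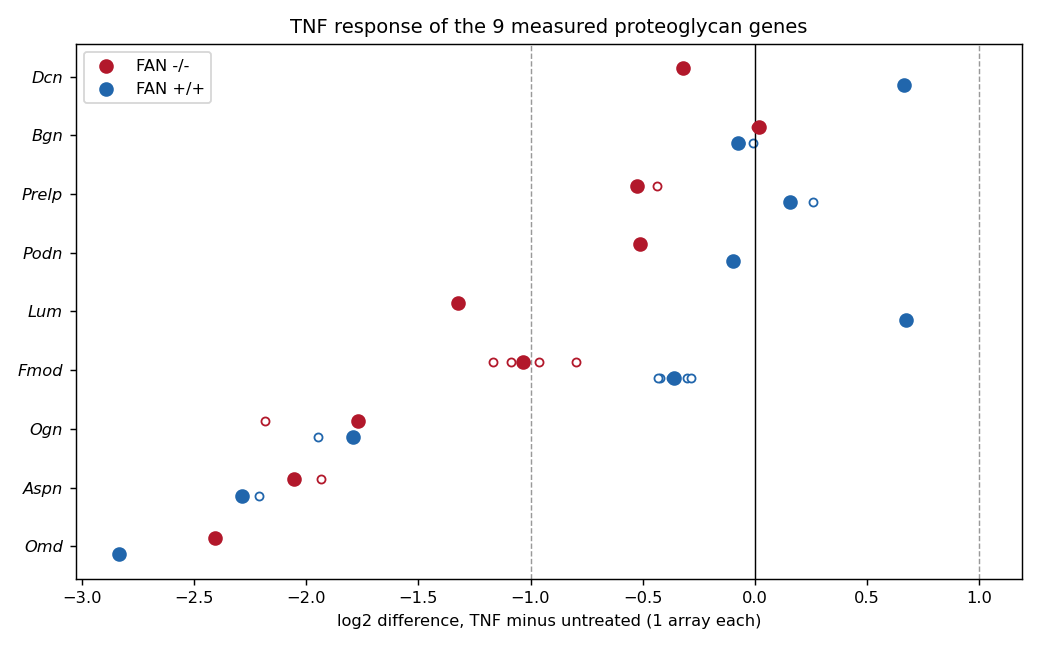
TNF response of the 9 measured genes as the log2 difference TNF minus untreated (horizontal axis), with FAN -/- in red above FAN +/+ in blue; open points are further probe sets and dashed lines mark 2-fold. Omd, Aspn and Ogn lie left of the lower line in both colours, and Lum lies at -1.32 in red and 0.67 in blue.

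Between genotypes, 4 of 9 members were at least 2-fold lower in FAN -/- cells with TNF (Lum, Dcn, Fmod and Prelp), where 2.64% of all genes were. Untreated, 5 of 9 were (the same 4 and Omd), where 2.89% of all genes were. Omd passed this line at 2.04-fold untreated, just inside it, and lay outside it at 1.51-fold with TNF. Aspn was slightly higher in FAN -/- cells, by 0.40 log2 with TNF and 0.17 log2 untreated. No member was 2-fold higher in FAN -/- cells, where 1.55% of all genes were with TNF and 1.45% untreated. The median member difference was -0.60 log2 with TNF and -1.03 log2 untreated, against 0.01 and -0.03 log2 over all genes. Untreated, 4 members were left beyond 2-fold with quantile normalization, under which Omd had -0.95 log2, and likewise with a gene's probe sets averaged, under which Dcn had -0.63 log2. The fibroblast marker Pdgfra, a PDGF receptor gene, was lower in FAN -/- cells as well, at log2 9.62 with TNF and 9.46 untreated against 11.43 and 10.89 in FAN +/+ cells, which is 3.48-fold and 2.70-fold. Of the 9 fibroblast markers Pdgfra alone was past 2-fold by genotype. The median difference of that list was -0.05 log2 with TNF and -0.08 log2 untreated. With TNF and untreated, Thy1 differed by 0.38 and 0.62 log2 and S100a4 by -0.48 and -0.61 log2.

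**Figure D3:**
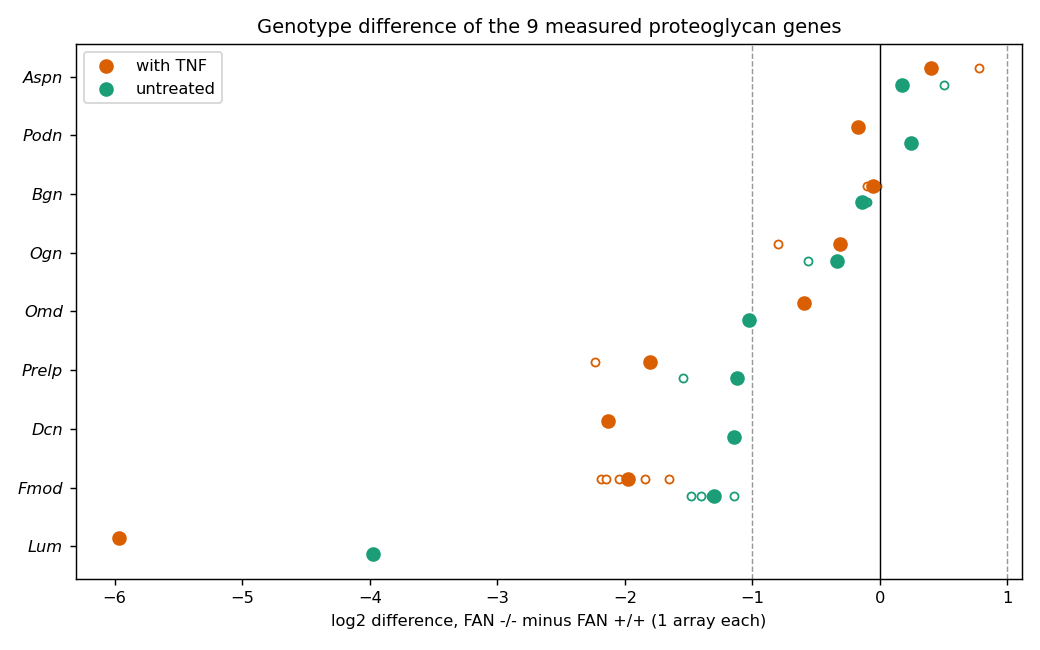
Genotype difference of the 9 measured genes as the log2 difference FAN -/- minus FAN +/+ (horizontal axis), with TNF in orange above untreated in green; open points are further probe sets and dashed lines mark 2-fold. Lum lies at -5.97 with TNF and -3.97 untreated, Fmod, Dcn and Prelp lie beyond the 2-fold line in both treatments, and Bgn lies near 0.

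The difference of the 2 TNF responses, FAN -/- minus FAN +/+, was -2.0 log2 for Lum, -0.98 for Dcn, -0.68 for Prelp, -0.67 for Fmod and -0.42 for Podn. It was 0.43 log2 for Omd, 0.23 for Aspn, 0.09 for Bgn and 0.02 for Ogn. Lum alone among the members was past 2-fold, where 0.818% of all genes were past it in this direction and 0.794% in the other. No degree of freedom is left to test any of these differences.

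Averaged over the genotypes, the TNF difference was -2.62 log2 for Omd, -2.17 for Aspn and -1.78 for Ogn. For Fmod it was -0.70 and for the other 5 members it lay between -0.32 and 0.17. Averaged over the treatments, the genotype difference was -4.97 log2 for Lum, -1.64 for Dcn, -1.64 for Fmod and -1.46 for Prelp. It was -0.81 log2 for Omd, and between -0.32 and 0.29 for the other 4.

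**Figure D4:**
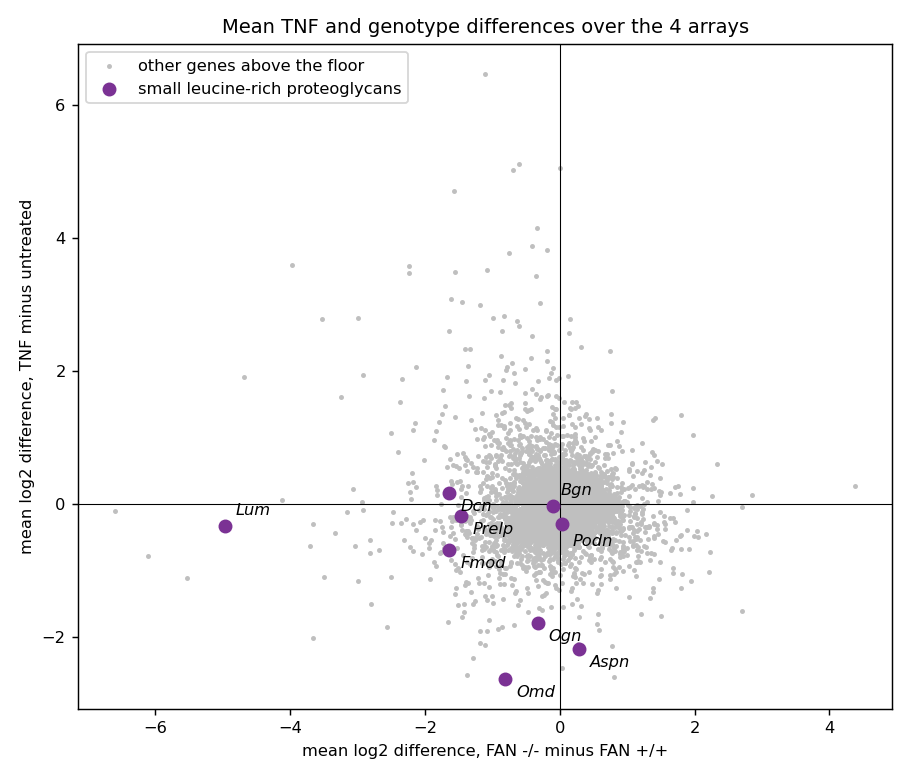
Each point is a gene above the floor on at least 1 array, placed by its mean log2 difference FAN -/- minus FAN +/+ (horizontal axis) and its mean log2 difference TNF minus untreated (vertical axis); the 9 measured family members are in purple and all other genes in grey. Omd, Aspn and Ogn lie low on the TNF axis, Lum lies far left at -4.97, and Dcn, Fmod and Prelp lie between -1.64 and -1.46 on the genotype axis.

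Likeness of pattern was measured as the Euclidean distance between the 4 log2 levels of a gene, centred on their own mean, over 10985 genes above the floor on all 4 arrays. With 4 points per gene many profiles lie close together, so the distances only describe these arrays. Nearest to Aspn were Col8a2, a collagen chain, at 0.22, Adamtsl1 at 0.40 and Eln, the elastin gene, at 0.49, with Ogn as its 7th and Omd as its 51st nearest. Nearest to Omd were Lmcd1 at 0.61, Ndnf at 0.64 and Arhgap20 at 0.78, with Ogn as its 8th and Aspn as its 12th nearest. Nearest to Ogn were Id1, a transcriptional inhibitor induced by BMP signals, at 0.25, Tenm3 at 0.29 and Mettl7a1 at 0.31, with Aspn as its 28th and Omd as its 93rd nearest.

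Fmod was nearest to Mgp, which encodes the calcification inhibitor matrix Gla protein, at 0.11, followed by Cdon at 0.27 and Pag1 at 0.29, with Prelp as its 16th and Dcn as its 109th nearest. Mgp itself had log2 levels of 11.96 with TNF and 12.94 untreated in FAN -/- cells, and of 13.82 and 14.14 in FAN +/+ cells. Dcn was nearest to Emb at 0.21, Irx1 at 0.23 and Matn2 at 0.32, with Prelp as its 10th and Fmod as its 105th nearest. Prelp was nearest to Trps1 at 0.21, Col6a2, a collagen VI chain, at 0.22 and Glipr1 at 0.26, with Dcn as its 18th and Fmod as its 46th nearest. This distance counts the size of differences as well as their direction, and Lum, which spanned 5.97 log2, lies far from most genes by it. The nearest to Lum were Coch at 1.27, the Wnt antagonist gene Sfrp2 at 1.58 and Abi3bp at 1.91. The nearest member, Dcn, ranked 48th, while Lum ranked 10942nd of 10984 from Dcn. Likeness of direction apart from size was not measured.

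Of 7 further genes of the family or its neighbourhood, 5 are on the array. Optc, the gene of the eye protein opticin, lay just above the floor on 3 arrays, between log2 6.40 and 6.56, and below it at 6.11 on the untreated FAN +/+ array. Epyc, Chad, Nyx and Ecm2 lay below it on all 4.

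The genes that make, bind or cut these proteins were compared with limma in an additive fit of TNF and genotype over the 4 arrays, with Benjamini-Hochberg adjustment over 11817 genes. "Rose" and "fell" below mean an adjusted p under 0.05 in that fit, which sets 2 arrays against 2 for either effect. Over all genes, 1.57% rose and 1.14% fell with TNF, and 2.94% were higher and 3.67% lower in FAN -/- cells. The fit has 1 residual degree of freedom, which is the difference of the 2 TNF responses. Its p-values thus set an effect against departure from an additive pattern, with variances shared over genes, and not against a spread of replicates.

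Of 26 tested enzymes that build and sulfate the sugar chains, 0 passed the limma test for TNF or for genotype. At an unadjusted p under 0.05 there were 6 for TNF and 9 for genotype. The genes named here were picked after their values were seen. The 2 lowest for TNF were Chst11, a chondroitin sulfotransferase, at 0.69 ± 0.16 log2 with TNF (SE, limma adjusted p = 0.13) and Papss2, which makes the sulfate donor, at 0.67 ± 0.16 log2 (adjusted p = 0.13). The other 4 were negative, with Csgalnact1, an enzyme that starts chondroitin chains, at -0.89 ± 0.32 log2 (adjusted p = 0.25) as the widest of the 6. By genotype the lowest adjusted p-values were those of Dsel, a dermatan sulfate epimerase relative, at -0.57 log2 (adjusted p = 0.056) and B4galt7, an enzyme of the chain's linker, at 0.58 log2 (adjusted p = 0.064). The B4galt7 probe set carries the array maker's suffix for probes that may match other transcripts. The list's median change was -0.03 log2 with TNF and -0.02 log2 by genotype, against -0.02 and -0.01 log2 over all genes.

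Among 13 collagens of the fibrils or on them, Col5a3 rose with TNF by 1.85 ± 0.10 log2 (SE, limma adjusted p = 0.0098) and Col11a1 fell by 1.20 ± 0.09 log2 (adjusted p = 0.016). The list's median TNF change was -0.28 log2. By genotype 5 of 13 were lower in FAN -/- cells, led by Col6a3 at -1.75 ± 0.17 log2 (adjusted p = 0.016), Col6a2 at -1.61, Col2a1, the main cartilage collagen, at -1.47 and Col5a3 at -1.39. The other was Col6a1 at -1.07 log2, and Col12a1 was higher at 0.60 log2; these, like Col1a1 and Col1a2 below, are named after their values were seen. All 3 collagen VI chains on the list were thus lower, while Col1a1 and Col1a2, the chains of the main fibril collagen, had -0.26 log2 (adjusted p = 0.12) and -0.05 log2 (adjusted p = 0.66). Col1a1 and Col1a2 lay between log2 13.65 and 14.30, close to the highest value of each array (14.34 to 14.4). Whether that limited their differences was not tested.

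Among 14 tested receptors and growth factors that these proteins bind, Tlr2, a receptor of released biglycan, rose with TNF by 3.04 ± 0.17 log2 (SE, limma adjusted p = 0.011). The collagen receptor chain gene Itga1 fell by 1.12 ± 0.15 log2 (adjusted p = 0.047), Tgfb2 fell by 1.0 ± 0.11 log2 (adjusted p = 0.027) and Tgfb3 fell by 0.94 ± 0.09 log2 (adjusted p = 0.023). Tgfb1, also named after its value was seen, had 0.58 log2 and did not pass (adjusted p = 0.083). In FAN -/- cells Tlr2 was lower at -1.45 log2 (adjusted p = 0.023), while Ccn4 was higher at 1.49 log2 (adjusted p = 0.011) and Tgfb2 at 0.93 log2 (adjusted p = 0.021).

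Among 10 tested proteases, Mmp13 rose with TNF by 2.80 ± 0.31 log2 (SE, limma adjusted p = 0.028) and Mmp9 by 1.66 ± 0.21 log2 (adjusted p = 0.037); both degrade matrix proteins. Mmp13 was lower in FAN -/- cells at -2.99 log2 (adjusted p = 0.019). Because Mmp13 lay below the floor on the untreated FAN -/- array, these fitted sizes depend on the floor. Mmp3, named after its values were seen, had the widest changes of the list and did not pass. It had 3.59 ± 0.74 log2 with TNF (limma adjusted p = 0.0995) and -3.97 log2 by genotype (adjusted p = 0.056). With TNF it was 35.8-fold higher in FAN -/- cells, from log2 6.48 near the floor, and 4.08-fold higher in FAN +/+ cells. Tll1, which belongs to the protease family that trims the precursors of several members, was higher in FAN -/- cells at 1.07 log2 (adjusted p = 0.0499). These calls on the 4 lists depend on the setting: 0 list genes passed without the filter on low values, and 0 passed with TNF or genotype alone in the model.

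**Figure D5:**
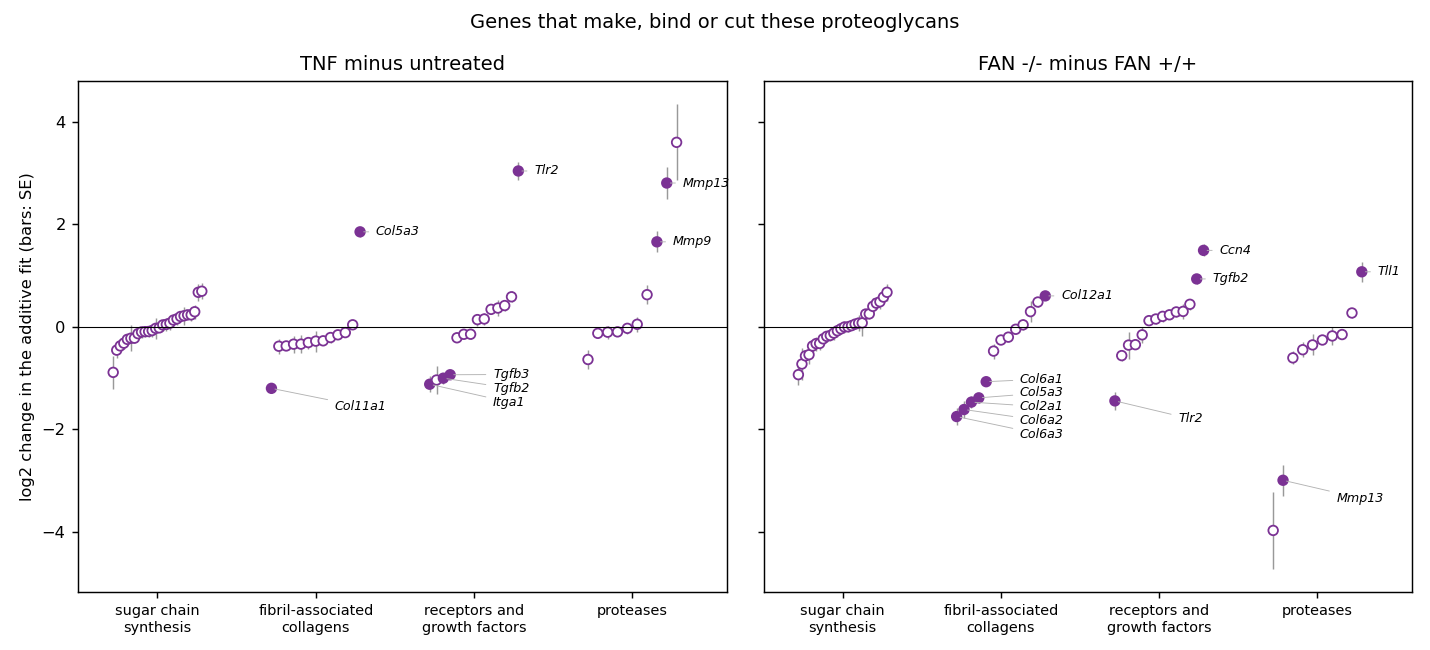
Log2 change in the additive limma fit (vertical axis) for TNF minus untreated (left) and FAN -/- minus FAN +/+ (right), 1 point per tested gene with bars for the SE, grouped by list; filled points passed at an adjusted p under 0.05 and are named. No sugar chain enzyme is filled, Tlr2 and Mmp13 lie high with TNF, and the collagen VI chains lie low in FAN -/- cells.

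Marker lists of other cell types were read beside these results. All 9 fibroblast markers lay above the floor on all 4 arrays, with a summed signal of 90964 with TNF and 101797 untreated in FAN -/- cells and of 104249 and 111060 in FAN +/+ cells. These sums are carried by Col1a1, Col1a2, Vim and Fn1, at log2 13.65 to 14.3, and leave the Pdgfra and Thy1 differences unseen. Of 8 macrophage and leukocyte markers on the array, 3 lay above the floor (Csf1r, Lyz2 and Cd14), and Ptprc, Adgre1, Cd68, Itgam and Cx3cr1 did not. The summed signal of these 8 was 984 with TNF and 1446 untreated in FAN -/- cells, against 1128 and 678 in FAN +/+ cells. The 7 chondrocyte markers summed to 560 and 640 in FAN -/- cells, against 1054 and 1386 in FAN +/+ cells, with Acan, Matn1, Matn3 and Snorc below the floor on all arrays. The largest part of these sums was Col2a1, at log2 8.15 and 8.36 against 9.53 and 9.93. Sox9 differed by -0.09 log2 with TNF and -0.35 log2 untreated. The 5 adipocyte markers on the array summed to 317 and 391 in FAN -/- cells, against 605 and 869 in FAN +/+ cells, with Adipoq below the floor on all arrays. Fabp4 differed most among them, at log2 6.52 and 5.45 (below the floor) against 8.56 and 8.66. The tendon marker Tnmd was higher in FAN -/- cells, at log2 9.18 with TNF and 9.94 untreated against 7.46 and 8.06 in FAN +/+ cells. The other tendon markers were Egr1, between log2 13.47 and 13.76, and Scx, Mkx and Thbs4, with a highest value of log2 6.86. The 6 smooth muscle markers, all above the floor on all 4 arrays, summed to 30858 with TNF and 32643 untreated in FAN -/- cells, against 25981 and 27532 in FAN +/+ cells. Of 4 osteoblast markers on the array, Sp7 and Alpl lay above the floor and Ibsp and Phex did not, with sums of 281 and 263 in FAN -/- cells against 277 and 270.0 in FAN +/+ cells. Pecam1, Cdh5, Tie1 and Emcn of the endothelial list lay below the floor on all arrays, while Kdr and Tek lay above it on all 4. Of the epithelial list, Cdh1, Krt18 and Krt14 lay below the floor on all arrays. Epcam, between log2 9.05 and 9.25, and Krt8 and Krt5, between log2 6.49 and 6.93, lay above it on all 4. The Epcam probe set carries the array maker's suffix for probes that may match other transcripts. The part of such cells in the genotype differences of Lum, Dcn, Fmod and Prelp was not tested.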

How the data were processed

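RNA of 4 conditions was hybridised to 4 Affymetrix arrays, 1 each. The deposited table holds 1 number per probe set and array, taken to be on a log2 scale since they run between 2.79 and 14.4. The submitters' processing notes name MAS5 without a version, and the sources used here do not state how arrays were scaled to one another. Compression of low or very high values by that step would shrink differences. Of 45101 probe sets, 64 controls were left out and 34945 name 1 gene (platform annotation, symbols checked against the RefSeq gene table of GRCm38.p6, 0 changed). For each gene the probe set with the highest mean log2 value was used, and values under the 50th percentile of all values were raised to it. Differences of 1 array against 1 carry no test, and 2-fold was the threshold. limma 3.58.1 in R 4.3.3 (lmFit, eBayes with trend) took the genes that exceeded this floor on 2 or more arrays and was checked on simulated data. Named list genes are up to 4 per list and effect past this fit, by size; the 3 nearest profiles were named for members spanning at least 2-fold. No source tells whether the arrays of a genotype stem from separate cultures. The error of the fit is the difference of the 2 TNF responses, which may be partly technical, with variances shared over genes. The p-values of the fit thus measure no spread between replicates. The members and lists were chosen with earlier results of these data known. Alternatives were other floors, probe set averaging, centring, quantile normalization, a 1.5-fold threshold and other limma settings.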

Additional observations from a re-analysis of the deposited data

Results flagged for a closer look

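For 4 of the 9 measured members the TNF response had opposite signs in the genotypes, each on 1 array against 1, and the difference was not tested. The response in FAN -/- cells minus that in FAN +/+ cells was -2.0 log2 for Lum, -0.98 for Dcn, -0.68 for Prelp and 0.091 for Bgn. For Bgn both responses were under 0.1 log2 in size. Among all 12224 genes above the floor, 30.9% had responses of opposite sign.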

How the results depend on the processing

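No analysis paired by replicate number was possible because the labels give none; the additive fit itself sets TNF against untreated within each genotype. With 1 array left out, that fit has no residual degree of freedom, so this was not run. All 9 measured members lay above the floor on all 4 arrays, so a lower floor or no floor could not change their values. The floor at the 70th percentile could reach only Lum and Omd. Probe set averaging could not alter Lum, Omd or Podn, which have a single probe set each. Of 270 member values under these and the other settings, 266 moved by less than 1.5-fold. None changed sign from a difference of 2-fold or more. The 4 others were Omd with the floor at the 70th percentile (log2 7.84), which gave -1.43 log2 for TNF in FAN -/- cells, 0 for the genotype difference with TNF and 1.03 for the difference of responses, and Dcn with both probe sets averaged, which gave -1.22 log2 between genotypes with TNF. That floor put 1 member, Omd, past 2-fold upward in the difference of responses. It left 4 members, without Lum, lower with TNF in FAN -/- cells, against 5. Untreated, 4 members rather than 5 were lower in FAN -/- cells with probe sets averaged (without Dcn) or quantile normalization (without Omd). At a 1.5-fold threshold 2 members were higher with TNF in FAN +/+ cells, and 5 rather than 4 were lower in FAN -/- cells with TNF.

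In limma, 8 list genes passed for TNF and 11 for genotype. Without the filter 0 list genes and 0 of all genes passed for either effect, in either direction; at an unadjusted p under 0.05, 9 list genes were higher and 8 lower for TNF, and 10 and 9 for genotype. With treatment alone in the model, which is also how the genotype entries, as opposed to the titles, would split the arrays, 0 list genes and 0 of all genes passed (3 higher and 6 lower list genes unadjusted). With genotype alone, 0 list genes passed (6 and 11 unadjusted), and 4 of all genes were higher and 6 lower. The 70th percentile floor gave 225 genes lower with TNF, against 135. The cause was not tested. Values near the floor (Omd with TNF) and near the top of the scale (Bgn, Col1a1 and Col1a2) limit what the arrays can show.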

Other observations

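The protein-coding neighbours of the family's gene clusters were read after the members' values had been seen. On chromosome 13, Cenpp and Ecm2 on one side of Aspn lay below the floor on all 4 arrays. On the other side, next to Ogn, Nol8 had TNF responses of -0.01 log2 in FAN -/- and -0.04 log2 in FAN +/+ cells, and Iars had 0.08 and 0.07 log2. On chromosome 10, Btg1, which restrains cell division, had genotype differences of -0.21 log2 with TNF and 0.17 log2 untreated, while Epyc and Ccer1 beyond Kera lay below the floor. On chromosome 1, Btg2, a p53 target next to Fmod, had genotype differences of 0.03 log2 with TNF and 0.28 log2 untreated. The TNF responses of Btg2 were -0.53 log2 in FAN -/- and -0.28 log2 in FAN +/+ cells, and those of Btg1 were -0.08 and 0.31 log2. None of these measured neighbours reached 2-fold in any of the 4 comparisons, on 1 array each and with no test.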
